A study of Mus musculus with 12 samples.

Results

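The enzymes described here remove reactive carbonyls and quinones. They were taken from the deposited table as the protein-coding genes whose symbols begin with Akr, Aldh, Adh or Cbr followed by a digit, together with *Nqo1* and *Nqo2*. *Aldh18a1*, a biosynthetic enzyme of proline and ornithine metabolism, was left out. This gave 49 of the 54532 genes in the table, of which 17 are aldo-keto reductases (Akr), 20 aldehyde dehydrogenases (Aldh), 6 alcohol dehydrogenases (Adh), 4 carbonyl reductases (Cbr) and 2 quinone reductases (Nqo). The study sequenced poly-A mRNA of mouse colonoids, which are organoids grown from the stem cells of colonic crypts. Control colonoids came from *Hmox1* fl/fl mice and KO colonoids from Hmox1ΔIEC mice, which carry the same floxed alleles and a *Vil1*-Cre transgene whose villin promoter is active in intestinal epithelium. Colonoids of both genotypes were kept for 24 hours with vehicle or with 200 μM hemin (heme with ferric iron and chloride), and 3 libraries were sequenced in each of these 4 groups. The epithelial cells came from mice 8 to 12 weeks old. How many mice or colonoid lines stand behind the 3 libraries of a group is not given in the sources used here, so p-values measure the spread between these libraries, which may be technical. The labels write the genotype of replicate 3 labeled KO with hemin as floxed alleles with *Vil1*-Cre, and that of the other KO libraries as *Hmox1* KO with *Vil1*-Cre.

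*Hmox1* encodes heme oxygenase-1 (HO-1), which opens the heme ring and releases iron, carbon monoxide and biliverdin. Free heme and iron oxidize membrane lipids, and oxidized lipids break down into aldehydes such as 4-hydroxynonenal. The enzyme families meet such products in different ways. Aldo-keto reductases and carbonyl reductases use NADPH to turn aldehydes and ketones into alcohols, aldehyde dehydrogenases oxidize aldehydes to acids, alcohol dehydrogenases interconvert alcohols with aldehydes or ketones, and quinone reductases convert quinones to hydroquinones without a semiquinone radical. Several of these genes, *Nqo1* best known among them, are textbook targets of NRF2, a transcription factor that is released from KEAP1 by electrophiles and binds antioxidant response elements. Others, such as *Adh1* and the Aldh1a enzymes, also act on retinol and retinaldehyde.

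The response to hemin of 4 of the enzyme genes was larger in the colonoids labeled KO by the test of the difference described below, though for *Akr1b7* that call was lost with limma-voom (adjusted p = 0.11). The 250 bases before the annotated start of each of these 4 genes are shown because that test singles them out and because textbook NRF2 targets are among them. The sequences are RefSeq's, on GRCm38.p6, and run 5′ to 3′ on the strand of the gene. The starts used are RefSeq's too and differ from the deposited ones, so each window ends on or inside the deposited gene. The *Nqo1* sequence lies at chr8:107403206-107403455 on the minus strand, *Akr1b8* at chr6:34353896-34354145, *Akr1b7* at chr6:34412112-34412361 and *Cbr3* at chr16:93682969-93683218, all 3 on the plus strand. Capitals mark the letters GGGCGG (the core of a GC box) and TATAAA (the TATA box) on either strand, and adjacent GGGCGG matches in *Akr1b8* and overlapping ones in *Cbr3* run into each other.
Nqo1: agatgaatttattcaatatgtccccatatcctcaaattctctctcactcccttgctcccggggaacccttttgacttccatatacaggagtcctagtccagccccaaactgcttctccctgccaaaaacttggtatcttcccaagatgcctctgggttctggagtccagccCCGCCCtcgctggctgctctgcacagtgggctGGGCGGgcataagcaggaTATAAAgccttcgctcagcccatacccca
Akr1b8: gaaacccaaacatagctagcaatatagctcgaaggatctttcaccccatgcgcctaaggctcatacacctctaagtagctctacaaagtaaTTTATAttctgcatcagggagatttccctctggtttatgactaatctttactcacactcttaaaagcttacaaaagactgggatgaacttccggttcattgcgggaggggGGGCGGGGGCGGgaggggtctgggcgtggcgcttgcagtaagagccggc
Akr1b7: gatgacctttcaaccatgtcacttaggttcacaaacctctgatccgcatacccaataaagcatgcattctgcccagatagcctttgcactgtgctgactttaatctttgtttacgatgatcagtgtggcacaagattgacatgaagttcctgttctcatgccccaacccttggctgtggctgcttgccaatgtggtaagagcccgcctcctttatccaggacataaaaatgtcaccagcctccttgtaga
Cbr3: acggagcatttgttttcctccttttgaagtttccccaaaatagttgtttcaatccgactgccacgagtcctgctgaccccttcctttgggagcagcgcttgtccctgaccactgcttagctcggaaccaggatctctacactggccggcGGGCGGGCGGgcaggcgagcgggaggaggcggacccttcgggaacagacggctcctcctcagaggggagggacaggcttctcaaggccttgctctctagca
A TATAAA match ends shortly before the start of *Nqo1* and another, on the opposite strand, lies farther upstream in *Akr1b8*. GGGCGG occurs in *Nqo1*, *Akr1b8* and *Cbr3* and not in *Akr1b7*. Neither TGACNNNGC, the core of the antioxidant response element, nor TGANTCA, the AP-1 site, occurs in any of these 4 sequences or in the 50 bases after the starts. No match says only that these letters are not in this window. Promoter windows of 300 bases (250 before and 50 after the start) were found for 40 of the 49 genes, some with more than 1 window, and a gene is counted where any of its windows holds the letters. TGACNNNGC occurred in 5 of the 40 (12.5%), *Adh6a*, *Akr1c19*, *Akr1cl*, *Aldh1a2* and *Aldh9a1*, and in 14.0% of the 27025 genes with a window. TGANTCA occurred in 3 of the 40 (7.5%, beside 8.97% of those genes), GGGCGG in 13 (32.5%, beside 38.2%) and TATAAA in 7 (17.5%, beside 15.7%). All were searched on both strands, and a TGANTCA match can overlap a TGACNNNGC match.

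The libraries held 11648801 to 25101868 fragments on genes. Values are FPKM, which divide the fragments of a gene by its length in kilobases and by the size of the library. The length used is that of all annotated exons together. It is 0.975 to 6.04 times that of 1 annotated transcript over the tested enzyme genes, and over 1.5 times in 13 of them, so levels of different genes can be set side by side only roughly. For *Akr1b3* it is 8384 bases against 1387 in its transcript and for *Akr1c19* 5892 against 1242, and the FPKM of such genes is low for their number of fragments. Ratios of 1 gene between groups do not depend on this length. Of the 49 genes, 37 reached an FPKM of 1 in at least 3 of the 12 libraries and were tested, while 12 did not. Differences were tested with limma on log2(FPKM + 1) across all 12740 genes that passed this filter, with Benjamini-Hochberg adjustment over all of them. A gene is called here, and said to rise or fall, where its adjusted p-value is under 0.05 and its log2 fold change is above 1 or below −1. Folds given without a test are ratios of mean FPKM. Log2 fold changes on the log2(FPKM + 1) scale understate the change of genes with low FPKM. Epithelial markers were high in all groups, with the summed FPKM of 9 such genes between 5972 and 10324. Fibroblast, immune and endothelial marker lists each summed to less than 1 FPKM in every library. In bulk RNA of such cultures, fewer cells of a type and less RNA per cell cannot be told apart. Replicate 3 of the hemin-treated controls stood apart. Its values deviated from its group mean with an SD of 0.32 on the log2 scale over all tested genes, against 0.12 to 0.24 in the other libraries. Across 12730 genes the deviation from the group mean correlated with transcript GC content at r = −0.53 in that library, 0.47 in replicate 2 of the same group and −0.32 to 0.27 in the others. *Hmox1* itself goes against the KO label under hemin. Its FPKM was 382 to 503 in hemin-treated controls and 1271 to 1393 in the hemin-treated libraries labeled KO, a log2 fold change of 1.53 (adjusted p = 3.3e-06 from limma), while under vehicle it was 6.85 to 7.90 in controls and 2.11 to 3.14 in those labeled KO. The genotype is therefore given as labeled, and every direction between genotypes below rests on that label.

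The summed level of these enzymes was higher with hemin in both genotypes, and the families differed in how they took part. Over all 49 genes the summed FPKM was 1282 ± 6.87 (SD, n = 3) in vehicle-treated controls and 2762 ± 93.4 in hemin-treated controls. It was 1577 ± 45.1 with vehicle and 2878 ± 88.2 with hemin in colonoids labeled KO. The Akr family made up the largest share in hemin-treated colonoids of both genotypes, with 611 ± 7.82 under vehicle and 1571 ± 109 under hemin in controls, and 515 ± 9.46 and 1535 ± 35.2 in those labeled KO. The 2 quinone reductases together went from 39.0 ± 3.46 to 292 ± 36.0 in controls and from 18.2 ± 0.74 to 371 ± 25.3 in those labeled KO, the largest ratio of the 5 families in each genotype (7.48 and 20.4, or 5.62 and 11.9 with transcript lengths, an alternative chosen after seeing the data). The summed Adh level behaved differently, at 92.6 ± 1.58 with vehicle and 59.7 ± 0.54 with hemin in controls, but 524 ± 20.2 with vehicle and 119 ± 1.61 with hemin in those labeled KO. Aldh sums were 291 ± 17.5 and 539.6 ± 12.7 in controls and 279 ± 7.63 and 385 ± 27.4 in those labeled KO. Cbr sums were 249 ± 14.9 and 300.3 ± 42.1 in controls, where vehicle and hemin libraries overlapped, and 240.4 ± 8.40 and 469 ± 49.8 in those labeled KO, where they did not. After rescaling each library to a common total (TPM), the Aldh sums of the colonoids labeled KO with vehicle and hemin overlapped as well (ratio 1.10). The hemin and vehicle groups of the Akr, Nqo and Adh sums stayed apart in both genotypes. That total includes the small RNA gene *Gm23935*. Its share of the FPKM was far larger in hemin replicate 2 of those labeled KO than in replicates 1 and 3. Whether the Aldh overlap remains with this gene left out of the total was not tested. These sums were not tested.

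**Figure D1:**
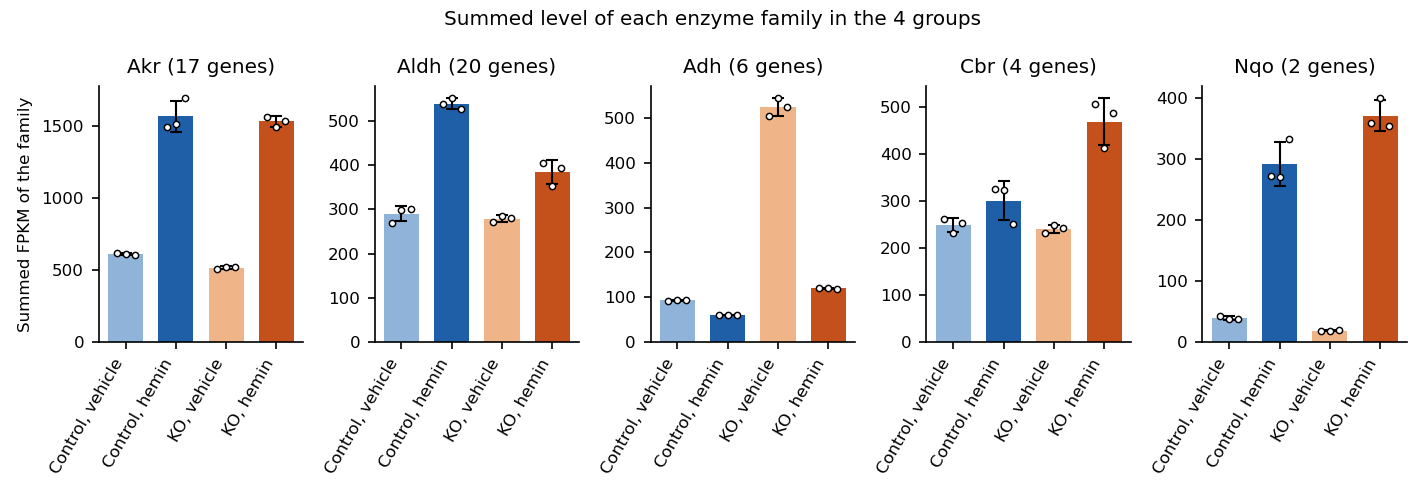
Summed FPKM of each enzyme family (vertical axis, linear and starting at 0, with its own scale in each panel) in the 4 groups. Bars are means, whiskers are SD and white points are the 3 libraries of a group. The Adh sum is highest in vehicle-treated colonoids labeled KO (524), and the Nqo sum in both genotypes is higher with hemin.

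The leading gene by FPKM changed from group to group. In vehicle-treated controls *Akr1a1* held the largest share of the summed FPKM (15.1%), followed by *Akr1c13* and *Cbr2* (9.60% each). In vehicle-treated colonoids labeled KO, *Adh1* alone held 31.8%. *Akr1c13* led in hemin-treated controls with 15.0%, ahead of *Akr1b8* (11.7%) and *Nqo1* (10.3%), and *Akr1b8* led in hemin-treated colonoids labeled KO with 16.6%, ahead of *Nqo1* (12.7%). The order under hemin depends on the length that fragments are divided by. With the length of 1 transcript per gene *Akr1c19* led in hemin-treated controls (24.4%, ahead of *Aldh1a1* with 12.8%) and in hemin-treated colonoids labeled KO (16.5%, ahead of *Akr1b8*), while *Akr1a1* (18.7%) and *Adh1* (31.5%) still led under vehicle. Across the 37 tested genes the heat map shows 3 main patterns. One block is higher with hemin in both genotypes, a smaller one is lower with hemin, and a few rows follow the genotype.

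**Figure D2:**
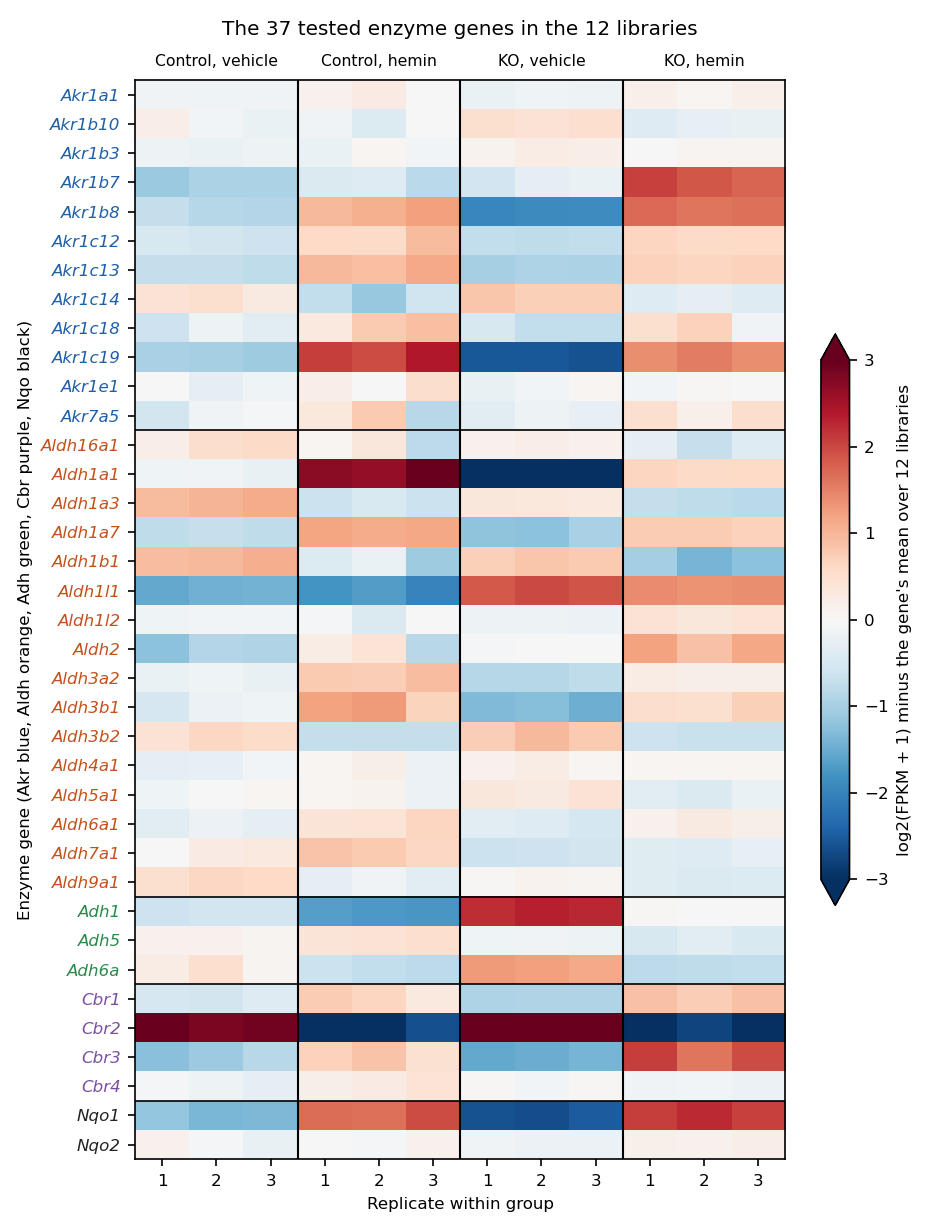
The 37 tested enzyme genes (rows, grouped by family) in the 12 libraries (columns, by group and replicate). Color is log2(FPKM + 1) minus the mean of the gene over all libraries, and values beyond 3 or −3 have the end color. *Nqo1*, *Akr1b8*, *Akr1c19* and *Aldh1a1* are red with hemin in both genotypes, *Cbr2* is blue with hemin, and *Aldh1l1* and *Adh1* follow the genotype.

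With hemin, 12 of the 37 tested genes (32.4%) rose and 6 (16.2%) fell in control colonoids. Of all 12740 tested genes, 2.17% were called higher and 5.93% lower in that comparison. In the colonoids labeled KO, 14 (37.8%) rose and 7 (18.9%) fell, against 4.87% and 8.07% of all tested genes. The share of these enzymes that rose was above that of all genes in both genotypes, and the share that fell was above it as well. On the log2 scale the median change of the 37 genes was 0.33 in controls and 0.28 in those labeled KO, beside −0.01 and −0.00 over all genes. The same 12 genes rose in both genotypes, namely *Akr1b8*, *Akr1c12*, *Akr1c13*, *Akr1c18*, *Akr1c19*, *Aldh1a1*, *Aldh1a7*, *Aldh3a2*, *Aldh3b1*, *Cbr1*, *Cbr3* and *Nqo1*. The same 6 fell in both, namely *Adh1*, *Akr1c14*, *Aldh1a3*, *Aldh1b1*, *Aldh3b2* and *Cbr2*. *Akr1b7*, *Aldh2* and *Adh6a* passed both thresholds in the colonoids labeled KO and not in controls. None of the 37 was called in opposite directions. Among the genes called, *Adh6a*, *Aldh1a3*, *Aldh3b2* and *Cbr2* passed the filter on low values only through their vehicle-treated libraries, *Akr1c18* only through hemin-treated ones and *Akr1b7* only through those labeled KO, so their calls are not independent of it. By the adjusted p-value alone, without the fold threshold, 20 of the 37 (54.1%) were higher and 9 (24.3%) lower in controls, beside 23.2% and 26.7% of all genes, and 19 (51.4%) were higher and 13 (35.1%) lower in those labeled KO, beside 29.9% and 30.4%. By that rule the share that was lower in controls was under that of all genes.

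**Figure D3:**
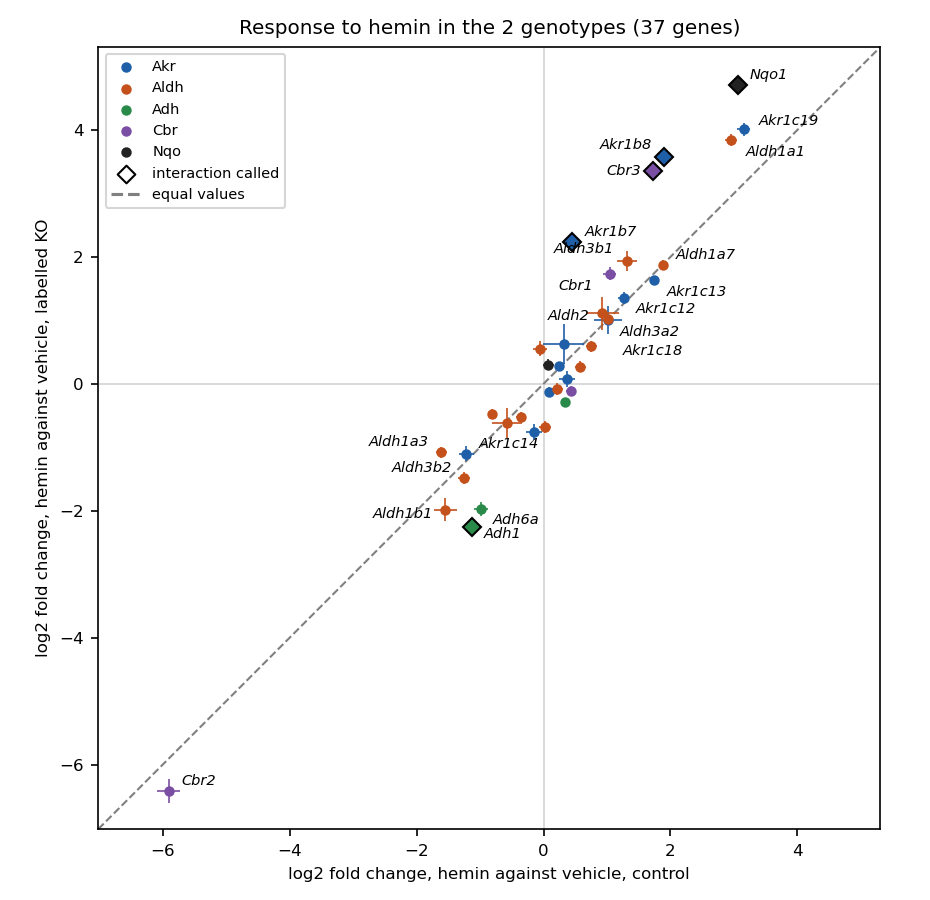
Log2 fold change of hemin against vehicle in control colonoids (horizontal) and in those labeled KO (vertical) for the 37 tested genes, on the log2(FPKM + 1) scale with standard errors from limma as whiskers. Diamonds are the 5 genes called in the interaction, and names are given for the 21 genes called in either genotype. *Nqo1*, *Akr1b8*, *Cbr3* and *Akr1b7* lie above the line of equal values, *Adh1* lies below it, and *Cbr2* has the largest decrease in both.

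Between genotypes fewer of the enzymes differed. Under vehicle, *Adh1* and *Aldh1l1* were called higher in the colonoids labeled KO (5.41% of the 37, beside 3.53% of all tested genes), and *Akr1b8*, *Akr1c19*, *Aldh1a1*, *Aldh3b1* and *Nqo1* were called lower (13.5%, beside 3.27%). The count called higher was 4 without control vehicle replicate 2, 4 with limma-voom or a pseudocount of 0.1 and 5 on the TPM scale, and with limma-voom 7 were called lower under vehicle and 3 under hemin. Under hemin, *Adh1*, *Akr1b7*, *Aldh1l1*, *Aldh2* and *Cbr3* were called higher (13.5%, beside 3.1%), and *Aldh1a1* and *Aldh7a1* lower (5.41%, beside 2.91%). The median over the 37 genes was −0.14 under vehicle and −0.11 under hemin, beside 0.02 and 0.04 over all genes. The interaction, which tests whether the response to hemin differed between genotypes, was called higher in the colonoids labeled KO for *Akr1b7*, *Akr1b8*, *Nqo1* and *Cbr3* (10.8%, beside 2.57% of all genes) and lower for *Adh1* (2.7%, beside 2.56%). *Akr1b7* passed the filter on low values only through the hemin-treated libraries labeled KO, in which it is high, and its call in the interaction was lost with limma-voom (adjusted p = 0.11). By the adjusted p-value alone, 11 of the 37 (29.7%) were higher and 14 (37.8%) lower in those labeled KO under vehicle, beside 17.4% and 16.8% of all genes, and 9 (24.3%) and 12 (32.4%) under hemin, beside 19.7% and 14.7%. In the interaction they were 10 (27.0%) and 6 (16.2%), beside 13.3% and 10.5%. The median interaction over the 37 genes was −0.01, beside 0.02 over all genes. Counts of 2 or 1 gene of 37 near the share of all genes say little about these enzymes as a group.

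**Figure D4:**
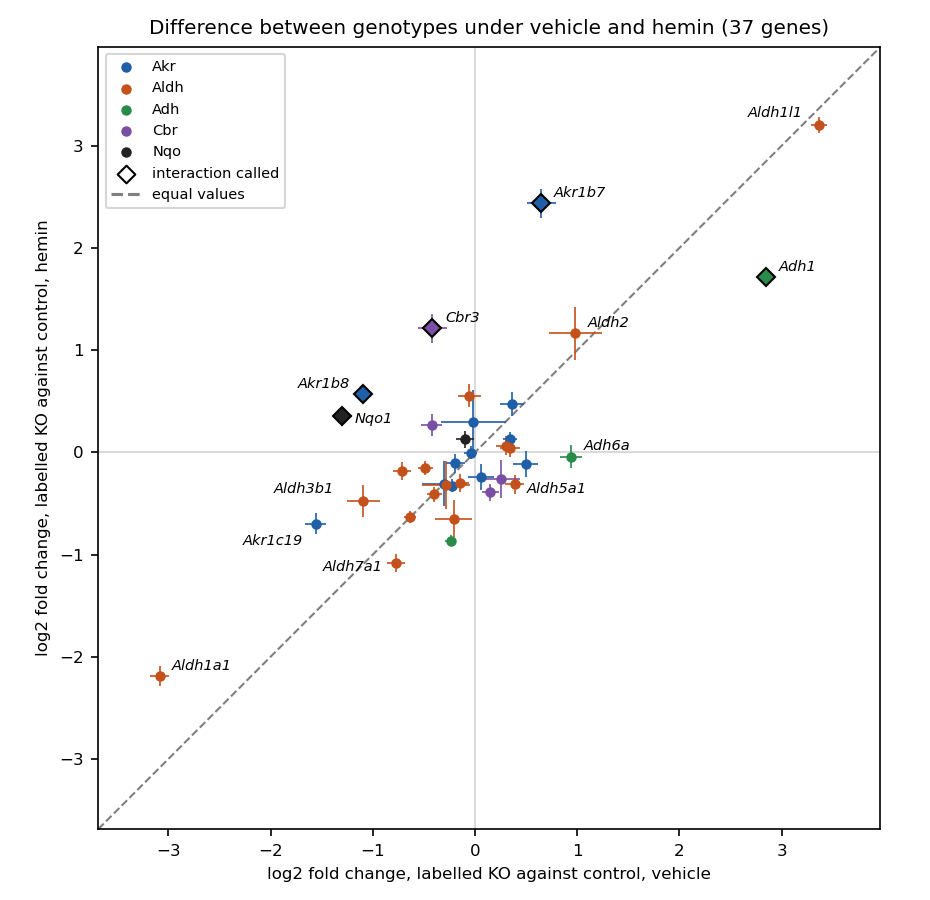
Log2 fold change of colonoids labeled KO against controls under vehicle (horizontal) and under hemin (vertical) for the 37 tested genes, with standard errors from limma as whiskers. Diamonds are the 5 genes called in the interaction. *Nqo1*, *Akr1b8* and *Cbr3* lie left of 0 under vehicle and above 0 under hemin, whereas *Aldh1l1* and *Aldh1a1* keep their side.

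*Nqo1* (ENSMUSG00000003849, chromosome 8 from 107388225 to 107403206, 6 exons) encodes NAD(P)H quinone dehydrogenase 1, which reduces quinones to hydroquinones. It stood at 36.5, 31.7 and 31.9 FPKM in vehicle-treated controls and at 266, 265 and 327 in hemin-treated controls. In the libraries labeled KO it was 12.7, 12.4 and 13.8 with vehicle and 352, 393 and 347 with hemin. The colonoids labeled KO thus started lower and ended higher, with no overlap between the 4 groups. The increase with hemin was 8.57-fold in controls (log2 fold change 3.06, SE 0.10, adjusted p = 3.2e-09) and 28.1-fold in those labeled KO (4.71, SE 0.10, adjusted p = 5.3e-11). The interaction was 1.65 (SE 0.14, adjusted p = 1.4e-05). Under vehicle the difference between genotypes was −1.30 (adjusted p = 1.4e-06) and under hemin it was 0.35 (adjusted p = 0.015), which misses the fold threshold. *Nqo2*, the relative that uses dihydronicotinamide riboside in place of NAD(P)H, did not pass the thresholds in any comparison and lay between 4.84 and 6.81 FPKM over all 12 libraries. *Nqo2* overlaps *Serpinb6a* on the opposite strand, which is expressed at a mean of 87.2 FPKM, and whether the counting used strand is not given in the sources used here.

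**Figure D5:**
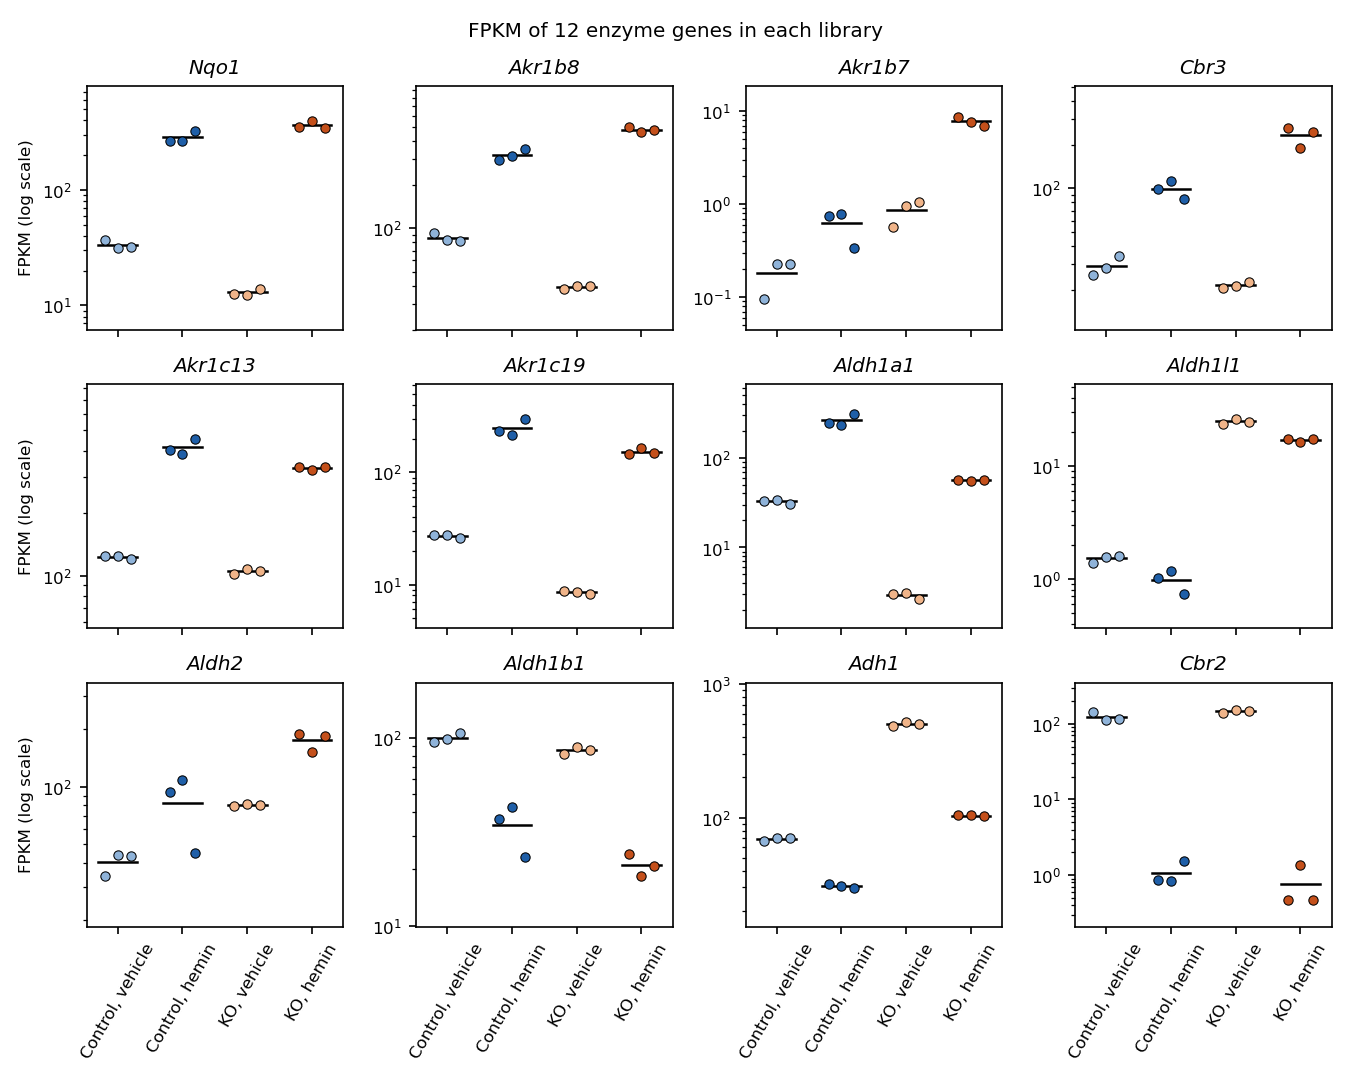
FPKM of 12 enzyme genes in each library (vertical axes, log scale, a different range in each panel). Points are the 3 libraries of a group and bars are group means. *Nqo1*, *Akr1b8* and *Cbr3* are lower in colonoids labeled KO with vehicle and higher with hemin. In *Aldh2*, replicate 3 of the hemin-treated controls is the lowest point of its group.

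The 4 Akr1b genes lie within 120.7 kb of chromosome 6. *Akr1b3* is the aldose reductase of the mouse, which turns glucose into sorbitol, and the others are aldose reductase-like enzymes that reduce lipid aldehydes. *Akr1b8* (ENSMUSG00000029762, chromosome 6 from 34354119 to 34368463) was 92.2, 82.6 and 82.1 FPKM in vehicle-treated controls and 299, 316 and 354 in hemin-treated controls. It was 38.4, 39.8 and 39.9 with vehicle and 498, 461 and 476 with hemin in the libraries labeled KO, so that, as for *Nqo1*, the genotypes changed order. Hemin raised it 3.77-fold in controls (log2 fold change 1.90, SE 0.07, adjusted p = 1.5e-08) and 12.2-fold in those labeled KO (3.57, SE 0.07, adjusted p = 5.8e-11), with an interaction of 1.67 (SE 0.10, adjusted p = 1.8e-06). The difference between genotypes was −1.10 under vehicle (adjusted p = 6.6e-07) and 0.57 under hemin (adjusted p = 0.00013). On the TPM scale the vehicle difference was −0.97 and no longer passed the fold threshold.

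*Akr1b7* (ENSMUSG00000052131, chromosome 6 from 34412334 to 34423142), first known from the vas deferens, was barely detected without hemin. It stood at 0.0947, 0.228 and 0.227 FPKM in vehicle-treated controls (2 to 5 fragments) and at 0.753, 0.792 and 0.334 in hemin-treated controls (5 to 12 fragments). In the libraries labeled KO it was 0.573, 0.948 and 1.07 with vehicle and 8.73, 7.63 and 6.91 with hemin (127 to 230 fragments). The hemin-treated libraries labeled KO were thus the only ones in which it was well above the filter. The log2 fold change with hemin was 2.24 in those labeled KO (SE 0.14, adjusted p = 2.5e-07) and 0.45 in controls (adjusted p = 0.022), and the interaction was 1.79 (SE 0.20, adjusted p = 0.00011). With limma-voom on fragments recovered from the FPKM, a scale without the pseudocount of 1, its increase in controls was called (1.68, and 1.33 with a pseudocount of 0.1), and the interaction missed the threshold (adjusted p = 0.11; over all its alternatives 7.4e-05 to 0.11). Between genotypes under vehicle its log2 fold change was 0.65 (adjusted p = 0.0046), under the fold threshold, and it was called at 1.77 with a pseudocount of 0.1, 1.30 on the TPM scale and 2.13 with limma-voom. *Akr1b3* (8.13 to 11.4 FPKM) and *Akr1b10* (1.48 to 3.68 FPKM) were called in no comparison. The log2 fold change of *Akr1b10* with hemin in those labeled KO, −0.75 (adjusted p = 0.00032), was under the fold threshold and past it on the TPM scale (−1.23), on the TPM scale without the small RNA gene *Gm23935* (−1.14), with limma-voom (−1.05) and with a pseudocount of 0.1 (−1.02). The coding sequence of *Akr1b7* is 89.3% identical to that of *Akr1b10* and 84.9% to that of *Akr1b8*, and it shares no stretch of 100 bases with either.

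The Akr1c genes reduce ketosteroids and ketone xenobiotics, and 8 of them lie with *Akr1e1* within 560.2 kb of chromosome 13, where 4 genes rose and 1 fell with hemin in both genotypes. *Akr1c13* was 125, 125 and 119.9 FPKM in vehicle-treated controls, 403, 387 and 455 in hemin-treated controls, 102, 107 and 106 with vehicle and 333, 324 and 333 with hemin in those labeled KO. The log2 fold changes with hemin, 1.74 (adjusted p = 1e-08) and 1.64 (adjusted p = 6.8e-09), were close to each other, with an interaction of −0.10 (adjusted p = 0.48). *Akr1c12* followed with 116, 110.5 and 105 FPKM against 246, 241 and 316 in controls and 97.5, 95.3 and 96.3 against 255, 241 and 245 in those labeled KO (1.26 and 1.35). The coding sequences of *Akr1c12* and *Akr1c13* are 96.2% identical, and 11.5% of the stretches of 100 bases in one occur in the other, so their levels are not fully separate measurements.

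*Akr1c19* had the steepest rise of the Akr family in each genotype. Its FPKM was 27.8, 27.4 and 26.1 with vehicle and 236, 218 and 300.3 with hemin in controls, and 8.68, 8.66 and 8.27 with vehicle and 147, 164 and 148 with hemin in those labeled KO. Every library labeled KO lay below every control library of the same treatment. The increase was 9.28-fold in controls (log2 fold change 3.16, adjusted p = 3.7e-09) and 17.9-fold in those labeled KO (4.01, adjusted p = 2.5e-10), and the interaction, 0.86 (adjusted p = 0.0014), did not reach the fold threshold. The genotypes differed by −1.56 under vehicle (adjusted p = 5.3e-07) and by −0.70 under hemin (adjusted p = 0.0003). *Akr1c18*, which inactivates progesterone, rose from low counts, with 3 to 12 fragments with vehicle and 16 to 32 with hemin in controls and 1 to 5 and 11 to 52 in those labeled KO. Its log2 fold changes were 1.02 in controls (adjusted p = 0.0028) and 1.01 in those labeled KO (adjusted p = 0.0022). They sit on the fold threshold, and in controls the value was 0.89 without vehicle replicate 1, 0.95 without hemin replicate 2 and 0.90 without hemin replicate 3. In those labeled KO it was 0.97 without vehicle replicate 2 or 3, 0.95 without hemin replicate 1 and 0.84 without hemin replicate 2. *Akr1c14*, a hydroxysteroid dehydrogenase that makes neurosteroids and inactivates androgen, went the other way. It was 11.8, 12.2 and 10.4 FPKM with vehicle and 4.68, 3.32 and 5.26 with hemin in controls, and 15.8, 14.6 and 14.6 against 6.22, 6.86 and 6.22 in those labeled KO, a decrease of 1.22 (adjusted p = 1.1e-05) and 1.10 (adjusted p = 1.4e-05) on the log2 scale. *Akr1a1*, the general aldehyde reductase that also serves vitamin C synthesis in mice, was the steadiest abundant member, between 183 and 248 FPKM, and was called in no comparison. *Akr1e1* (7.94 to 14.5 FPKM) and *Akr7a5*, an aflatoxin aldehyde reductase (25.2 to 78.2 FPKM), were not called either.

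Of the carbonyl reductases, *Cbr1* and *Cbr3* rose and *Cbr2* fell. *Cbr1* reduces prostaglandins, quinones and many drugs, and *Cbr3* is its neighbor on chromosome 16, with the pair spanning 85.1 kb and 77.2% coding identity. *Cbr3* (ENSMUSG00000022947, chromosome 16 from 93683215 to 93690990, 3 exons) was 25.2, 28.4 and 34.1 FPKM with vehicle and 99.7, 112 and 84.9 with hemin in controls. The libraries labeled KO had 20.5, 21.2 and 22.8 with vehicle and 262, 189.8 and 242 with hemin. Under hemin every library labeled KO was above every control of that treatment, while under vehicle every one was below. The log2 fold change with hemin was 1.73 in controls (SE 0.14, adjusted p = 3.4e-06) and 3.36 in those labeled KO (SE 0.14, adjusted p = 1.3e-08), that is 3.39-fold and 10.8-fold, and the interaction was 1.63 (SE 0.20, adjusted p = 0.00021). The genotypes differed by 1.21 under hemin (adjusted p = 6.5e-05) and by −0.42 under vehicle (adjusted p = 0.044, under the fold threshold).

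*Cbr1* was 91.8, 89.3 and 99.1 FPKM with vehicle and 221, 205 and 160.0 with hemin in controls, and 69.0, 69.4 and 69.4 with vehicle and 241, 218 and 241 with hemin in those labeled KO. It rose by 1.05 (adjusted p = 1.3e-05) and 1.74 (adjusted p = 1.7e-07) on the log2 scale, with an interaction of 0.69 (adjusted p = 0.0062) under the fold threshold. The control value lost its call on the TPM scale (0.86, the lowest of its alternatives) and without replicate 1 of the hemin-treated controls (0.95). *Cbr2* (ENSMUSG00000025150, chromosome 11 from 120729489 to 120732114, 8 exons), a mitochondrial carbonyl reductase known from mouse lung, had the largest decrease of the 37 genes on the log2(FPKM + 1) scale, a scale that understates the change of *Adh6a*, which had 0 or 1 fragment in each hemin-treated library labeled KO. By the ratio of mean FPKM the order of these genes in those labeled KO cannot be told at so few fragments. *Cbr2* was 141, 112 and 117 FPKM with vehicle and 0.859, 0.828 and 1.55 with hemin in controls. In the libraries labeled KO it was 138, 154 and 146 with vehicle and 0.471, 1.35 and 0.473 with hemin. The vehicle-treated libraries were all above 110 FPKM and the hemin-treated ones all under 2, a 114-fold decrease in controls (log2 fold change −5.91, SE 0.19, adjusted p = 3.3e-09) and a 191-fold decrease in those labeled KO (−6.42, SE 0.19, adjusted p = 7.7e-10). The 191-fold value depends on hemin replicate 2 of those labeled KO (1.35 FPKM, against 0.471 and 0.473) and would be larger without it. No difference between genotypes or in the response was called for *Cbr2* (adjusted p = 0.35 under vehicle, 0.32 under hemin and 0.2 for the interaction). *Cbr4*, a mitochondrial quinone reductase, lay between 2.94 and 5.22 FPKM and was called in no comparison.

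Among the Aldh1a enzymes, several of which turn retinaldehyde into retinoic acid, the members moved in different directions. *Aldh1a1* (ENSMUSG00000053279, chromosome 19 from 20492715 to 20643462) was 33.0, 34.0 and 30.9 FPKM with vehicle and 243, 233 and 306 with hemin in controls. It was 3.05, 3.14 and 2.70 with vehicle and 57.3, 54.8 and 55.9 with hemin in those labeled KO. Every library labeled KO was below every control library of the same treatment, and the hemin-treated ones labeled KO were above the vehicle-treated controls. The increase with hemin was 7.99-fold in controls (log2 fold change 2.95, SE 0.10, adjusted p = 3.7e-09) and 18.9-fold in those labeled KO (3.85, SE 0.10, adjusted p = 2.2e-10). The genotypes differed 11.0-fold under vehicle (−3.09, adjusted p = 1.4e-09) and 4.66-fold under hemin (−2.19, adjusted p = 2.2e-08). The interaction of 0.90 (SE 0.13, adjusted p = 0.00072) was under the fold threshold and passed it with a pseudocount of 0.1 (1.21), with limma-voom (1.24) and without replicate 3 of the hemin-treated controls (1.02).

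*Aldh1a7*, the rodent neighbor of *Aldh1a1* with 91.6% coding identity, rose by almost equal amounts in both genotypes (1.89, adjusted p = 1.3e-08, and 1.87, adjusted p = 5.9e-09). It went from 7.72, 8.16 and 7.78 FPKM to 32.7, 30.9 and 31.9 in controls and from 5.42, 5.29 and 6.58 to 24.0, 24.3 and 22.8 in those labeled KO. *Aldh1a3* fell, from 2.65, 2.85 and 3.14 FPKM to 0.209, 0.385 and 0.222 in controls and from 1.42, 1.35 and 1.33 to 0.150, 0.129 and 0.0755 in those labeled KO. These are 10.6-fold and 11.5-fold decreases by mean FPKM, although the log2(FPKM + 1) values are only −1.61 (adjusted p = 1.5e-07) and −1.08 (adjusted p = 1.4e-06). Its difference between genotypes, −0.71 under vehicle (adjusted p = 7.7e-05) and −0.18 under hemin (adjusted p = 0.13), was called under vehicle with a pseudocount of 0.1 (−1.02) and with limma-voom under both (−1.08 and −1.18). *Aldh1a2*, the main retinoic acid enzyme of mesenchyme, had a single fragment in the 12 libraries together. Thus 1 pair of Aldh1a genes rose, 1 gene fell and 1 was not detectable at this depth.

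*Aldh1b1*, a mitochondrial enzyme known from intestinal stem and progenitor cells, fell from 94.4, 97.9 and 106 FPKM to 37.0, 42.8 and 23.1 in controls (−1.55, adjusted p = 4.1e-05) and from 81.5, 89.5 and 86.1 to 23.9, 18.3 and 20.7 in those labeled KO (−1.99, adjusted p = 3.7e-06). The lists of crypt stem and proliferating cell markers fell with it, 5 of 9 tested in controls and 7 of 9 in those labeled KO, with the summed FPKM of the list going from 200.04 to 223 down to 83.2 to 96.7 in controls and from 288 to 290 down to 144 to 160.1 in those labeled KO. Their part in the result was not tested. *Aldh2*, the main acetaldehyde dehydrogenase of mitochondria, was 34.2, 43.8 and 43.3 FPKM with vehicle and 94.4, 108 and 45.0 with hemin in controls, and 78.9, 81.7 and 80.1 with vehicle and 189.7, 152 and 184 with hemin in those labeled KO. The third hemin-treated control stood near the vehicle-treated ones. With all libraries, *Aldh2* rose in those labeled KO (1.11, adjusted p = 0.0034; not called on the TPM scale, 0.78, or on that without *Gm23935*, 0.89), missed the fold threshold in controls (0.93, adjusted p = 0.012) and was higher in those labeled KO under hemin (1.16, adjusted p = 0.0051). Without replicate 3 of the hemin-treated controls it also rose in controls (1.31, adjusted p = 1.1e-05) and the difference between genotypes under hemin was no longer called (0.78, adjusted p = 0.00054). Under vehicle that difference was 0.98 (adjusted p = 0.013), and it was called without control vehicle replicate 2 (1.04) or 3 (1.03).

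*Aldh3a2*, the fatty aldehyde dehydrogenase of the endoplasmic reticulum, went from 24.9, 26.3 and 24.8 to 50.8, 48.9 and 56.3 FPKM in controls and from 15.6, 15.5 and 16.6 to 33.9, 32.8 and 32.9 in those labeled KO. Its log2 fold changes, 1.01 (adjusted p = 3.7e-07) and 1.02 (adjusted p = 1.7e-07), sit on the fold threshold and were under it on the TPM scale (0.84 and 0.71). In controls the value was also under it without vehicle replicate 1 (0.9971), vehicle replicate 3 (0.9944) or hemin replicate 3 (0.95), and in those labeled KO without vehicle replicate 2 (0.9989). *Aldh3b1*, which acts on medium and long chain aldehydes, rose from 6.18, 7.99 and 8.27 to 22.5, 23.6 and 15.0 FPKM in controls (1.32, adjusted p = 4.8e-05) and from 3.07, 3.15 and 2.66 to 13.5, 13.2 and 15.6 in those labeled KO (1.93, adjusted p = 1.6e-06). It was lower in those labeled KO under vehicle (−1.09, adjusted p = 0.00026). Its neighbor *Aldh3b2*, a lipid droplet enzyme, fell to the floor of detection. It had 41 to 56 fragments with vehicle and 0 in all 3 hemin-treated libraries in controls, at least 11.5-fold lower if each of these libraries is set to a floor of 3 fragments. In those labeled KO it had 61 to 82 fragments with vehicle and 1 or 2 with hemin. The coding sequence of *Aldh3b2* is 89.7% identical to that of *Aldh3b3*, which had at most 7 fragments in any library.

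*Aldh1l1* (ENSMUSG00000030088, chromosome 6 from 90486427 to 90600203, 23 exons), the cytosolic formyltetrahydrofolate dehydrogenase of the folate pathway, differed by genotype and little by treatment. It was 1.40, 1.57 and 1.60 FPKM with vehicle and 1.01, 1.18 and 0.739 with hemin in controls. It was 23.9, 26.2 and 24.8 with vehicle and 17.5, 16.5 and 17.3 with hemin in those labeled KO. No library of one genotype came near the other, with a 16.4-fold difference under vehicle (log2 fold change 3.37, SE 0.08, adjusted p = 1.9e-10) and a 17.5-fold one under hemin (3.20, SE 0.08, adjusted p = 3.1e-10). The log2 fold changes with hemin, −0.36 in controls (adjusted p = 0.004) and −0.52 in those labeled KO (adjusted p = 0.00024), were under the fold threshold. The mitochondrial relative *Aldh1l2*, which overlaps *D10Wsu102e* on the opposite strand (mean 0.525 FPKM, beside 0.631 for *Aldh1l2*), lay between 0.192 and 1.18 FPKM. It passed the filter on low values only through the hemin-treated libraries labeled KO, in which it is highest, and was not called with a pseudocount of 1. At a pseudocount of 0.1 and with limma-voom its log2 values were past both thresholds with hemin in those labeled KO (1.17 and 1.31), between genotypes under hemin (1.24 and 1.42, against 0.56 with a pseudocount of 1) and in the interaction (1.39 and 1.61), and these values are not independent of the filter. *Aldh7a1*, which breaks down a semialdehyde of lysine, was 8.48, 8.0 and 7.10 FPKM in hemin-treated controls and 3.08, 3.04 and 3.42 in the hemin-treated libraries labeled KO (−1.08, adjusted p = 3.7e-06). With vehicle it was 4.25, 5.17 and 5.42 in controls and 2.36, 2.43 and 2.58 in those labeled KO (−0.78, adjusted p = 4.6e-05; called with limma-voom, −1.01). It overlaps *Phax* on the opposite strand (mean 12.7 FPKM), so its level is uncertain.

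*Adh1* and *Adh6a*, which lie in a cluster of all 6 Adh genes within 237.7 kb of chromosome 3, were lower with hemin, and *Adh1* had the largest difference between genotypes of that family. *Adh1* (ENSMUSG00000074207, chromosome 3 from 138260991 to 138290698) is the class I enzyme that oxidizes ethanol and retinol. It was 67.1, 69.8 and 69.8 FPKM with vehicle and 32.1, 30.7 and 29.9 with hemin in controls. The libraries labeled KO had 482, 522 and 502 with vehicle and 105, 104 and 102 with hemin, so that even the hemin-treated ones were above the vehicle-treated controls. Hemin lowered it 2.23-fold in controls (log2 fold change −1.13, SE 0.05, adjusted p = 5.4e-08) and 4.84-fold in those labeled KO (−2.26, SE 0.05, adjusted p = 1.3e-10), and the interaction was −1.13 (SE 0.07, adjusted p = 2.5e-06). The genotypes differed 7.28-fold under vehicle (2.85, adjusted p = 2.4e-11) and 3.36-fold under hemin (1.71, adjusted p = 1.3e-09). *Adh6a* was 1.00, 1.45 and 0.830 FPKM with vehicle in controls and 3.15, 3.03 and 2.78 in those labeled KO, and held 0 to 3 fragments in each hemin-treated library. Its decrease was called in those labeled KO (−1.97, adjusted p = 1e-07) and was −0.99 in controls (adjusted p = 2.9e-05), just short of the fold threshold. With a pseudocount of 0.1 it was called in controls as well (−3.06), and so it was without control vehicle replicate 1 (−1.02) or 3 (−1.08) or without hemin replicate 1 (−1.03). The interaction of *Adh6a*, −0.98 (adjusted p = 0.0011), was called without control vehicle replicate 2 (−1.10), control hemin replicate 3 (−1.01) or vehicle replicate 3 of those labeled KO (−1.02). Its difference between genotypes under vehicle, 0.94 (adjusted p = 5.9e-05), was called without control vehicle replicate 2 (1.06). *Adh5*, the class III enzyme that clears formaldehyde bound to glutathione, lay between 14.7 and 29.7 FPKM and was called in no comparison.

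The differences between genotypes stood beside differences in markers of position along the colon. All 3 tested genes of a list of distal markers (*Hoxb13*, *Hoxd13* and *Hoxa13*) were higher in those labeled KO under both treatments, and 3 of 4 tested proximal markers (*Hoxb6*, *Hoxb7* and *Hoxb8*) were lower. The summed FPKM of the distal list was 6.91 to 8.22 in vehicle-treated controls and 195 to 204 in the vehicle-treated libraries labeled KO, and 10.7 to 13.9 against 207 to 208 with hemin. The proximal list summed to 120.0 to 125 against 28.5 to 29.1 with vehicle and to 132 to 177 against 22.5 to 25.9 with hemin. Enteroendocrine markers were 37.9 to 46.1 against 562 to 590.2 with vehicle and 28.8 to 39.0 against 389 to 481 with hemin. Of 7 tested, 5 were called higher and 0 lower in those labeled KO under vehicle, and 3 higher and 1 lower under hemin. Of 3 tested markers of liver hepatocytes, where *Adh1* and *Aldh1l1* are abundant, all were called higher in those labeled KO under vehicle. The list summed to 0.895 to 1.45 against 10.9 to 13.1 FPKM, with *Cyp2e1* and *Serpina1a* at 3 fragments or fewer in every library. With hemin 1 of the 3 was called higher, and the list summed to 2.61 to 3.45 against 9.52 to 11.0 FPKM. Goblet cell markers fell with hemin, 3 of 8 in controls and 7 of 8 in those labeled KO, beside 5.93% and 8.07% of all genes. Their summed FPKM was 1705 to 1950 in controls against 2397 to 2526 in those labeled KO with vehicle. With hemin it was 1053 to 1412 against 594 to 654. Under vehicle 2 of the 8 were called higher in those labeled KO and 0 lower, and under hemin 1 higher and 4 lower. Crypt stem and proliferating cell markers summed to 200.04 to 223 FPKM in controls against 288 to 290 in those labeled KO with vehicle. With hemin they were 83.2 to 96.7 against 144 to 160.1. Absorptive colonocyte markers summed to 3087 to 3335 against 2163 to 2231 with vehicle and 5325 to 8071 against 3910 to 4646 with hemin. Of the 9 tested, 3 were called higher and 2 lower in those labeled KO under vehicle, and 2 higher and 2 lower under hemin. Epithelial markers were 8391 to 9374 against 5972 to 6018 with vehicle and overlapped with hemin. The part of these markers in the differences of *Adh1*, *Aldh1l1*, *Aldh1a1* and the other enzymes between genotypes was not tested. Position along the colon and genotype cannot be told apart in this design.

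Of the 14 tested genes called in no comparison, several still had adjusted p-values under 0.05 with small changes. *Aldh5a1*, which clears succinic semialdehyde, was 6.84, 6.44 and 7.34 FPKM with vehicle and 3.90, 3.57 and 4.33 with hemin in those labeled KO, against 4.57 to 5.42 and 4.46 to 5.57 in controls. With *Nqo1*, *Akr1b8* and *Cbr3* it is 1 of 4 genes whose difference between genotypes had opposite signs under vehicle and hemin, each with an adjusted p-value under 0.05, and its order was the reverse of theirs (0.39 under vehicle, adjusted p = 0.0073, and −0.31 under hemin, adjusted p = 0.022). On the TPM scale its log2 fold change with hemin in those labeled KO was called (−1.08). *Aldh9a1*, an enzyme of carnitine synthesis, ranged from 17.3 to 37.0 FPKM, with a call on the TPM scale alone (−1.01 with hemin in controls), and *Aldh6a1*, of valine breakdown, from 2.88 to 7.78. *Aldh4a1*, of proline breakdown, ranged from 2.10 to 3.42 and *Aldh16a1* from 7.66 to 21.4. *Aldh16a1* overlaps *Pih1d1* on the opposite strand (mean 19.2 FPKM). The 12 genes under the filter were *Adh4*, *Adh6b*, *Adh7*, *Akr1c20*, *Akr1c21*, *Akr1c6*, *Akr1cl*, *Akr1d1*, *Aldh1a2*, *Aldh3a1*, *Aldh3b3* and *Aldh8a1*. *Akr1c6* and *Akr1cl* had 0 fragments in all libraries. The most fragments in any library were 42 for *Adh7*, 16 for *Akr1c21* and 13 for *Aldh3a1*, the dioxin-inducible aldehyde dehydrogenase of cornea, and 7 or fewer for the others. *Adh7*, the retinol-oxidizing class IV enzyme, had 27 to 42 fragments in the vehicle-treated libraries labeled KO and 2 to 12 in the others.

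Position in the genome was not used to choose the genes. With gaps of up to 250 kb, 28 of the 49 genes fall into 7 clusters. In the *Cbr1* and *Cbr3* pair and in the *Aldh1a1* and *Aldh1a7* pair both genes rose with hemin in both genotypes. In the Akr1c cluster 4 of 6 tested genes rose and 1 fell. In the Aldh3b cluster, 68.2 kb on chromosome 19, *Aldh3b1* rose and *Aldh3b2* fell, and in the Adh cluster no gene rose.

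Other genes of the same pathways were read for comparison from lists that are not independent of earlier results of these data. With hemin, 2.17% of all tested genes were called higher and 5.93% lower in controls, and 4.87% and 8.07% in those labeled KO. Between genotypes the shares were 3.53% and 3.27% under vehicle and 3.1% and 2.91% under hemin, and in the interaction 2.57% and 2.56%. Counts of 1 or 2 of 24 near these shares say little about a list. Of 24 tested NRF2 targets outside the enzyme families, 11 rose with hemin in controls and 20 in those labeled KO, and none fell by limma in either genotype (1 and 0 had an unadjusted p under 0.05 and a lower level). Their medians were 0.90 and 1.93 on the log2 scale. The largest increases were in *Ugdh* (3.33) and *Gclc* (2.66) in controls and in *Gsta1* (5.04) and *Gclc* (4.61) in those labeled KO. Between genotypes 1 of these targets was higher and 4 lower under vehicle in those labeled KO, and 10 were higher and 1 lower under hemin, and in the interaction 14 were called higher and none lower by limma (1 at an unadjusted p under 0.05). Among the 9 tested regulators of the NRF2 pathway, 0 were called with hemin in controls by limma (4 at an unadjusted p under 0.05), and *Sqstm1* (1.56) and *Mafk* (1.31) rose in those labeled KO. Of 24 tested carbonyl and quinone handling enzymes of other families, such as *Ptgr1* and *Esd*, 1 rose and 2 fell in controls and 5 rose and 1 fell in those labeled KO, with *Esd* (2.17), an S-formylglutathione hydrolase, and *Hpgd* (1.84), a prostaglandin dehydrogenase, the largest increases in the latter and *Acss1* the decrease (−2.66). Of 19 tested genes of retinoid metabolism and response, 0 were called with hemin in controls by limma (11 at an unadjusted p under 0.05), and in those labeled KO 2 rose, *Rbp2* (2.45) and *Dhrs9* (1.13), and 1 fell, *Bco2* (−1.51).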

How the data were processed

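The 12 poly-A libraries of mouse colonoids were put into 4 groups of 3 by their sample labels. Per the submitters' processing notes, reads were trimmed with fastp, aligned with HISAT2 2.0.5 to mm10 and counted with featureCounts 1.5.0-p3. The authors deposited FPKM per gene, with gene coordinates, and these already hold a scaling between libraries, since size factors by the median of ratios came out equal in all of them. Each value was a whole multiple of what 1 fragment is worth for that gene and library, which gave back the fragments per gene. The table holds no comparisons of the authors. The analysis from there on used limma 3.58.1 in R 4.3.3, and Python 3.11.15 with pandas 2.3.3, Biopython 1.88 and matplotlib 3.10.9.

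The 12740 genes that reached an FPKM of 1 in 3 or more of the 12 libraries entered 1 limma fit of log2(FPKM + 1), with 1 mean per group, no block, a trend in the empirical Bayes moderation and 8 residual degrees of freedom. p-values were adjusted by the Benjamini-Hochberg method over all these genes. The 5 comparisons were hemin against vehicle in each genotype, labeled KO against control under each treatment, and their interaction. The functions were tested on simulated data. Within groups, chi-square per degree of freedom between libraries was 1.93 to 43.1, so no library repeated another. Coding identity was aligned from GENCODE M21 transcripts on GRCm38, in which the start and end of 46 of the 49 genes are the same as deposited, and promoter windows are RefSeq's. The FPKM say nothing of strand, exons or variants.

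The enzyme genes and the comparison lists were chosen with earlier results of these data known. Genes were named by a rule. Each enzyme gene called in at least 1 comparison is given by library, or by its range of fragments where these are few. Each gene tested but never called is given by its range, and each under the filter by its fragments. Of other lists mainly the 2 largest changes in a direction are named, though not for every comparison. The called position markers are also named, and *Hmox1* is given as the check of the label. The lists were other carbonyl and quinone handling enzymes, retinoid metabolism, NRF2 regulators, NRF2 targets and cell markers. Among absorptive colonocyte markers, 1 of 9 rose and 2 fell with hemin in controls, and 2 rose and 3 fell in those labeled KO. The summed FPKM of this list was nevertheless higher with hemin. In controls it was 3087 to 3335 with vehicle and 5325 to 8071 with hemin. In those labeled KO it was 2163 to 2231 with vehicle and 3910 to 4646 with hemin. The part of these markers in the results was not tested. Tried as alternatives were limma-voom on recovered fragments, TPM, a pseudocount of 0.1, a filter on a mean FPKM of 5 or none, a block for the replicate number, no trend in the moderation, a fit of the compared groups alone, calls by adjusted p-value alone, and leaving out each library. TPM with *Gm23935*, a small RNA gene that takes up to 29.0% of the FPKM of a library, left out of the sum was added after seeing the data, as were levels over the length of 1 transcript per gene.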

Additional observations from a re-analysis of the deposited data

Results flagged for a closer look

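The response to hemin differed between genotypes in 5 of the 37 tested enzyme genes, by the interaction term of limma with the fold threshold. *Akr1b7* (1.79), *Akr1b8* (1.67), *Nqo1* (1.65) and *Cbr3* (1.63) had a larger log2 fold change with hemin in the colonoids labeled KO, and *Adh1* (−1.13) a more negative one. For *Akr1b8*, *Nqo1* and *Cbr3* the vehicle-treated libraries labeled KO started below the controls and the hemin-treated ones ended above them. For *Akr1b7* the difference rests on 2 to 12 fragments per control library and was not called with limma-voom (adjusted p = 0.11). *Akr1b7* also passed the filter on low values only through the hemin-treated libraries labeled KO, in which it is high. Its call is therefore not independent of that filter. Single outlying libraries were not tested.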

How the results depend on the processing

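Of 58 calls of an enzyme gene in a comparison, 49 were kept under every alternative that tested the gene, 9 were lost under at least 1 and none turned its direction. Of the 49, 8 are of genes that a mean FPKM of at least 5 did not test. The lost ones were the interaction of *Akr1b7* (limma-voom), the vehicle difference of *Akr1b8* (TPM), the hemin response of *Akr1c18* in both genotypes (libraries left out), of *Aldh3a2* in both (TPM and libraries left out), of *Cbr1* in controls (TPM and 1 library left out) and of *Aldh2* in those labeled KO (TPM, 0.78), and the difference of *Aldh2* under hemin (without control hemin replicate 3). On the TPM scale the median log2 fold change of all genes was −0.19 with hemin in controls and −0.31 in those labeled KO. Between genotypes it was 0.16 under vehicle and 0.04 under hemin, and in the interaction −0.11. In the fit of log2(FPKM + 1) these medians were, in the same order, −0.01, −0.00, 0.02, 0.04 and 0.02. They were −0.004 to 0.02 with limma-voom.

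With the adjusted p-value alone, the counts of genes higher and lower were 20 and 9 with hemin in controls, 19 and 13 in those labeled KO, 11 and 14 between genotypes under vehicle, 9 and 12 under hemin, and 10 and 6 in the interaction. A mean FPKM of at least 5 tests fewer genes, and 11 of the 58 calls were of genes it left out. With it, 4 were lower with hemin in those labeled KO and 1 was lower in those labeled KO under hemin. The other counts that had held *Akr1b7*, *Akr1c18*, *Aldh1a3* or *Aldh3b2* fell as well. Genes higher in those labeled KO under vehicle numbered 4 with a pseudocount of 0.1, 5 with TPM, 5 with TPM without *Gm23935* and 4 with limma-voom, where *Akr1b7* and *Adh6a* joined, and with TPM *Aldh2*. Lower interactions numbered 2 on the TPM scale, 2 on that without *Gm23935* and 2 at a pseudocount of 0.1, each time with *Adh6a*.

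With 1 library left out, genes higher and lower with hemin numbered 10 to 12 and 6 to 7 in controls and 12 to 14 and 7 to 7 in those labeled KO. Between genotypes they numbered 2 to 4 and 5 to 5 under vehicle and 4 to 5 and 2 to 2 under hemin, and in the interaction 4 to 5 and 1 to 2. The sources used here do not say whether replicate numbers pair libraries. Deviations of same-numbered libraries of different groups correlated at −0.04 on average (−0.33 to 0.18). For differently numbered ones the average was 0.02 (−0.39 to 0.34). These correlations cannot show that no pairing exists, since deviations of single libraries also enter them. With the replicate number as a block the counts were those of the fit without it, 12 and 6 with hemin in controls, 14 and 7 in those labeled KO, 2 and 5 and 5 and 2 between genotypes, and 4 and 1 in the interaction. The hemin-treated controls had the fewest fragments, and genes at a few fragments per library, such as *Akr1b7* with vehicle, are the least precise.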
